A study of Mus musculus with 43 samples.

Results

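Brain gene expression of vehicle-treated AppNLGF mice was compared with that of vehicle-treated wild type mice, both 6 months old. The comparison rests on 15 of the 43 RNA-seq libraries of the study, 11 from AppNLGF and 4 from wild type mice, and on the 16776 of 55804 gene rows whose mean was at least 1 TPM in the table of the AppNLGF cohort. TPM is transcript abundance corrected for length and set relative to the library's total. The study tested CDDO-2P-Im, a synthetic triterpenoid that induces the transcription factor NRF2, in AppNLGF mice and, in a second cohort of 11 months, in APP/TAU mice (APPV717I::TAUP301L). The AppNLGF mice (AppNL-G-F/NL-G-F) carry mutations of familial Alzheimer's disease, with a humanised amyloid stretch, in both copies of the endogenous App gene. They are knock-in mice, so that App is transcribed from its own promoter, and the labels name no tau transgene in them. Both groups carry the label of a vehicle of 10% DMSO and 10% Cremophor EL in PBS. For AppNLGF mice it was given by mouth 3 times per week for 4 weeks, and no schedule is listed for wild type mice. Another 13 libraries of AppNLGF mice given CDDO-2P-Im at 30 µmol/kg entered the same fit, where they add to the estimate of the spread. They also count in the mean TPM that decides which genes are tested and in the reference for the scaling described below. The labels give no brain region, strain of the wild type mice or sex. They do not state that each library comes from another animal, and the p-values rest on the spread among libraries, which may be technical.

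Amyloid deposits in the brain are surrounded by microglia, the resident macrophages, which take up and degrade extracellular material. Material taken up is delivered to lysosomes, acidic compartments in which cathepsins cut proteins and glycosidases trim sugar chains from lipids and proteins. Uptake is driven by surface receptors that signal through adaptors with immunoreceptor tyrosine-based activation motifs, kinases, phospholipases and phosphatases, and the macrophage state is held by transcription factors such as PU.1, IRF8 and C/EBPα. In bulk tissue a larger number of such cells and more RNA per cell cannot be told apart.

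TPM hold no information on sequencing depth, which is unknown here. A single gene row, ENSMUSG00000118866, which has no symbol in the names used here, took 30.7 to 33.7% of all TPM in wild type and 29.1 to 38.0% in AppNLGF vehicle libraries (difference 1.39 percentage points, two-sided exact permutation p = 0.440). In vehicle libraries numbered 1 to 5 that share was 36.3 ± 1.29% (SD, n = 5) and in those numbered 6 to 11 it was 30.5 ± 1.66% (n = 6). Because TPM sum to a fixed total, every comparison was also made after dividing each library by its median ratio to the geometric mean of the tested genes, called scaling below. Xist, the RNA of the inactive X chromosome, was below 0.1 TPM in all 4 wild type and in 6 vehicle libraries and at 73.5 to 96.6 TPM in vehicle libraries 3, 4, 5, 6 and 11, so the groups differ in their share of libraries with Xist. The tissue markers fitted brain: the synaptic gene Snap25 was at 1037 to 1144 TPM in wild type and 877 to 1152 TPM in AppNLGF vehicle, and the myelin gene Mbp at 1180 to 1457 TPM in wild type and 938 to 1433 TPM in AppNLGF vehicle. The Purkinje cell gene Pcp2 stayed below 0.783 TPM and the striatal gene Ppp1r1b was at 159.9 to 202 TPM in wild type and 115 to 209 TPM in AppNLGF vehicle. Cd3e and Ms4a1 of T and B lymphocytes were at 0 in all 4 wild type libraries and at most 0.164 TPM in AppNLGF vehicle, and S100a8 and Ngp of neutrophils at most 1.20 TPM in any of these 15 libraries.

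Genes were called at an adjusted p below 0.05 in limma, on log2(TPM + 1), with all differences given as AppNLGF vehicle minus wild type on that log2 scale. For genes with a wild-type mean near or below 1 TPM, adding 1 makes the difference smaller than the true log2 ratio. The filter took the mean over 28 libraries, of which 4 were wild type. Genes low in wild type could therefore pass through their AppNLGF values, which can favour rises over falls in the counts below. Cst7, Ptprc, Plau, Tlr13, Slc15a3, Pik3cg and Osmr are examples, each with a wild type mean below 1 TPM. As deposited, 37 genes were higher and 10 lower (0.221% and 0.0596% of genes tested), 47 in all (0.28%). With scaling, 93 were higher and 23 lower (0.554% and 0.137%), 116 in all (0.691%). The calls had 46 genes in common. The median difference of all tested genes was -0.03 as deposited and -0.00088 with scaling. Of the 16776 tested genes, 6431 were above 0 as deposited and 8310 with scaling (49.5%). This share and the called shares above are those against which the counts for each list below stand. Of the 117 genes called in either, 76 are outside the lists of plaque-associated and homeostatic microglia, reactive astrocytes, complement and immediate early genes. Among all tested genes 67 had all 11 vehicle libraries above all 4 wild type libraries and 44 had all below (0.399% and 0.262%, together 0.662%), as deposited. Of the 117 called genes, 75 had groups that did not overlap in this way. Without wild type library 1 or 4 the count higher as deposited was 22 or 24, and without wild type library 2 or 3 the count lower was 4 or 5. With scaling, leaving out wild type library 1 left 60 higher and 14 lower genes, and libraries 2 and 3 left 13 and 15 lower.

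**Figure D1:**
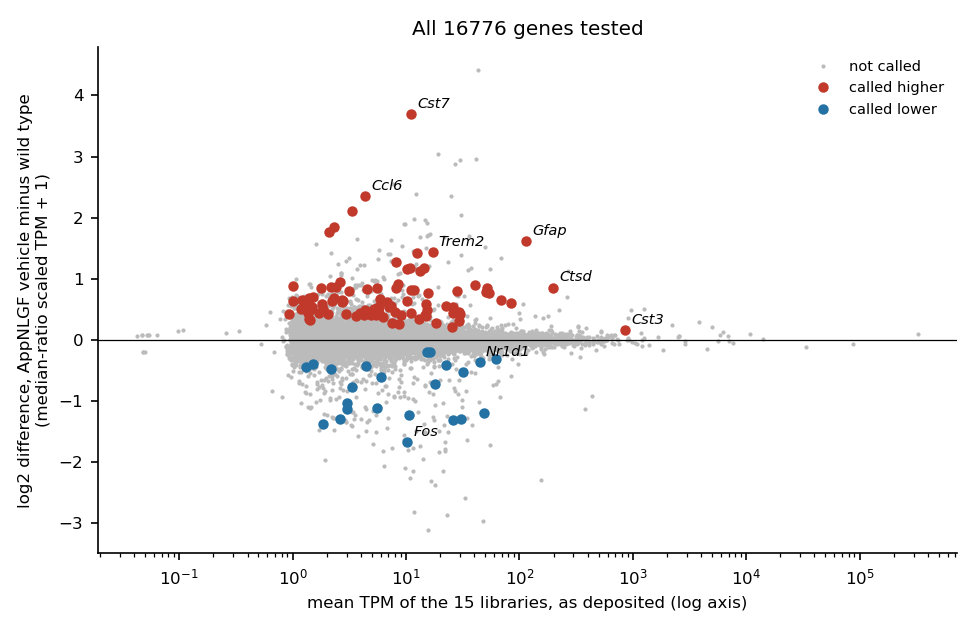
Log2 difference between AppNLGF vehicle and wild type (vertical, scaled TPM + 1) against the mean TPM of the 15 libraries (horizontal, log axis), a point per gene of the 16776 tested. Red points are the 93 genes called higher and blue points the 23 called lower with scaling; Cst7 lies highest among the called genes at 3.70.

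Of 15 tested cathepsin and cystatin genes, 4 rose as deposited and 7 with scaling, and 8 were not called in either. Over all tested genes 0.221% were called higher as deposited and 0.554% with scaling. Ctsd, Ctss, Ctsz and Cst7 are also members of the list of plaque-associated microglia, and Ctsa, Ctsc and Cst3 are not. Ctsd, the aspartic protease that starts protein breakdown in lysosomes (GRCm38, chromosome 7, 142375911 to 142388038), had values of 119.5, 127, 129 and 132 TPM in the wild type libraries and ran from 180.0 through a median of 231 to 250.4 TPM in AppNLGF vehicle. The groups did not overlap. The difference was 0.82 ± 0.14 as deposited (adjusted p = 0.00173) and 0.85 ± 0.08 with scaling (adjusted p = 4.08e-07). Ctss, a cysteine protease of microglia that stays active at neutral pH (chromosome 3, 95526786 to 95556403), was at 33.5, 34.9, 35.8 and 37.6 TPM in wild type and ran from 47.5 through a median of 60.6 to 66.8 TPM. Again every vehicle library was higher, by 0.74 ± 0.14 as deposited (adjusted p = 0.0102) and 0.77 ± 0.10 with scaling (adjusted p = 4.93e-05). Ctsz, a carboxypeptidase (chromosome 2, 174427493 to 174439039), was at 17.7, 17.8, 17.9 and 19.2 TPM in wild type and ran from 24.5 through a median of 32.7 to 34.9 TPM, without overlap, a difference of 0.77 ± 0.11 as deposited (adjusted p = 0.000157) and 0.80 ± 0.09 with scaling (adjusted p = 2.59e-06). Ctsa, the protective protein of lysosomal sialidase and galactosidase, was at 25.1 ± 1.84 TPM in wild type and 30.6 ± 2.52 TPM in AppNLGF vehicle (SD, n = 4 and 11) and rose with scaling only (0.30 ± 0.04, adjusted p = 5.8e-05 in limma). Ctsc, a dipeptidase that activates serine proteases, was at 2.79 ± 0.399 TPM in wild type and 3.91 ± 0.580 TPM in AppNLGF vehicle (SD) and also rose with scaling only (0.39 ± 0.08, adjusted p = 0.00902). Ctsb and Ctsl, cysteine proteases that act in most cells, were at 0.19 (adjusted p = 0.0599) and 0.32 (adjusted p = 0.0741) with scaling and were not called. Ctsc was no longer called with scaling without wild type library 1 or 3 (adjusted p 0.0728 to 0.0966). Ctss was no longer called as deposited without wild type library 1 or 4 (adjusted p 0.0600 to 0.0805).

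The inhibitor genes Cst7 and Cst3 were among the called members, Cst3 with scaling only. Cst7, which encodes cystatin F, was at 0, 0.146, 0.259 and 0.370 TPM in wild type and from 7.93 through a median of 14.7 to 19.9 TPM in AppNLGF vehicle. Cst3, cystatin C, the main secreted inhibitor of the brain (chromosome 2, 148871722 to 148875692), was at 769, 775, 819 and 819 TPM in wild type and from 781 through a median of 885 to 966 TPM, and 9 of 11 vehicle libraries exceeded every wild type library. Its difference was small, 0.13 ± 0.08 as deposited, where it was not called, and 0.16 ± 0.04 with scaling (adjusted p = 0.0237). Cst3 was no longer called with scaling without wild type library 1, 2, 3 or 4 (adjusted p 0.0761 to 0.115). In the list of cathepsins and cystatins 15 of 16 members were tested, none was called lower, and 14 had a scaled difference above 0. Of all tested genes 49.5% had one. The median of the list was 0.27 as deposited and 0.30 with scaling.

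Hydrolases and other proteins of the lysosome rose in part. Grn, the gene of progranulin, which supports lysosomal enzymes (chromosome 11, 102430315 to 102437048), was at 17.9, 19.6, 20.6 and 20.7 TPM in wild type and from 24.2 through a median of 28.6 to 32.8 TPM in AppNLGF vehicle. The ranges did not overlap, and the difference was 0.51 ± 0.10 as deposited (adjusted p = 0.00932) and 0.54 ± 0.06 with scaling (adjusted p = 4.87e-06). Gusb, the β-glucuronidase (chromosome 5, 129989011 to 130003049), was at 3.05, 4.36, 5.60 and 6.05 TPM in wild type and from 5.05 through a median of 7.46 to 9.51 TPM, with 10 of 11 vehicle libraries above every wild type library. It rose by 0.59 ± 0.12 as deposited (adjusted p = 0.0196) and 0.61 ± 0.10 with scaling (adjusted p = 0.000820). Hexa, a subunit of β-hexosaminidase (chromosome 9, 59539540 to 59565109), was at 18.8, 20.4, 21.2 and 22.6 TPM in wild type and from 23.2 through a median of 28.4 to 31.1 TPM. It separated the groups in all libraries. Hexa differed by 0.40 ± 0.13 as deposited (adjusted p = 0.449) and 0.43 ± 0.08 with scaling (adjusted p = 0.00193), so that it was called with scaling and not as deposited. Grn was no longer called as deposited without wild type library 1 or 4 (adjusted p 0.0554 to 0.0843). Gusb was no longer called as deposited without wild type library 1 or 4 (adjusted p 0.139 to 0.287).

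The same held for Man2b1, the lysosomal α-mannosidase, at 10.7, 12.1, 12.4 and 12.4 TPM in wild type and from 12.9 through a median of 15.8 to 17.3 TPM in AppNLGF vehicle (0.40 ± 0.05 with scaling, adjusted p = 1.18e-05). Npc2, which hands cholesterol to NPC1 inside the lysosome, was at 10.2, 10.5, 11.0 and 11.5 TPM and from 11.8 through a median of 13.9 to 15.2 TPM (0.34 ± 0.07, adjusted p = 0.00467). Every vehicle library exceeded every wild type library for both. Laptm5 and Cd68, membrane proteins of lysosomes in blood-lineage cells, rose by 0.59 ± 0.10 (adjusted p = 0.000979) and 1.17 ± 0.17 (adjusted p = 0.000137) with scaling, and Cd68 also as deposited (1.14 ± 0.21, adjusted p = 0.00624). Pla2g15, the lysosomal phospholipase A2, rose by 0.25 ± 0.05 (adjusted p = 0.00515), and Unc93b1, which carries nucleic acid-sensing Toll-like receptors to endolysosomes, by 0.43 ± 0.10 (adjusted p = 0.0223), both with scaling only. Of the lysosome list without cathepsins 34 of 35 members were tested, 3 were called higher as deposited and 8 with scaling, and the other 26 were not called with scaling. The shares called higher over all tested genes were 0.221% and 0.554%. The median of that list, 0.02 as deposited and 0.05 with scaling, was close to that of all genes. Tfeb, the transcription factor that drives lysosomal genes, was at 3.43 ± 0.554 TPM in wild type and 3.24 ± 0.815 TPM in AppNLGF vehicle (SD, n = 4 and 11) and was not called (-0.06 ± 0.15). Pla2g15 was no longer called with scaling without wild type library 1 (adjusted p 0.0513). Unc93b1 was no longer called with scaling without wild type library 1 or 2 (adjusted p 0.0870 to 0.269). Cd68 was no longer called as deposited without wild type library 4 (adjusted p 0.0931).

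**Figure D2:**
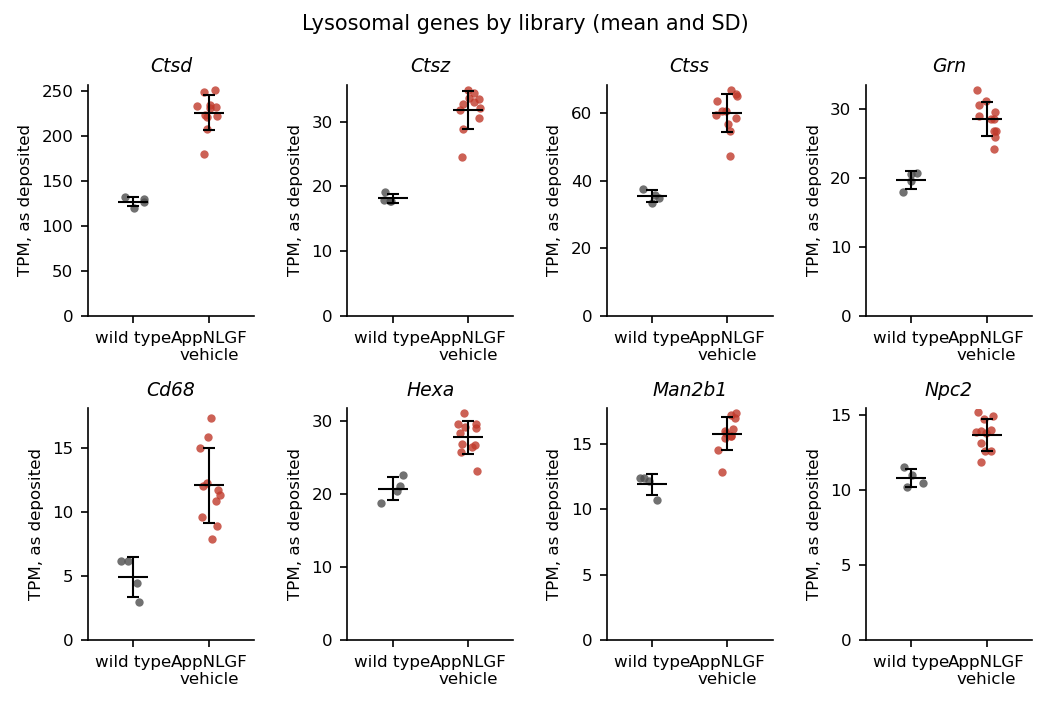
TPM as deposited (vertical) of 8 lysosomal genes in the 4 wild type (grey) and 11 AppNLGF vehicle (red) libraries, a point per library, with mean and SD in black. The vehicle libraries lie above all wild type libraries in each panel, from Ctsd with 180.0 against at most 132 TPM to Npc2 with 11.8 against at most 11.5 TPM.

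Promoter sequences of RefSeq (GRCm38.p6, 250 bases before to 50 after the gene start, 1 per gene) were available for 73 of the 93 genes called higher in either way. The letters GAGGAAGT, the core bound by PU.1 and related ETS factors (ACTTCCTC on the other strand), were present in 10 of these 73 promoters (13.7%), against 2.61% of the 10388 promoters of tested genes and 3.28% of all 27025. TCACGTGA, an E-box of the type found in lysosomal promoters, occurred in 1 of the 73 (1.37%), that of Ctsd, against 1.91% of promoters of tested genes. Both strands were searched and neither motif contains the other. Both were chosen when the called genes were known. Stretches around the match are shown for Ctsd and for 5 of the 10 genes with the ETS core, as examples picked after the matches were seen. They are written 5′ to 3′ on the strand of the gene, do not pass the gene start except for Ctss, whose match spans it, and have the motif in capitals.
Ctsd: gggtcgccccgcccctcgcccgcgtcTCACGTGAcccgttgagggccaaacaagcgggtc
Ctsc: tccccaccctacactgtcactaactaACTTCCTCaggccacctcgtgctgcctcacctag
Ctss: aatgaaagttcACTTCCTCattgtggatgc
C1qc: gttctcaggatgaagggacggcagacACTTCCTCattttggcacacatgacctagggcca
Inpp5d: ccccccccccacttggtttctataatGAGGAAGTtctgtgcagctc
Havcr2: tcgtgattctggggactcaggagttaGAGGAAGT
These lie at chr7:142387893-142387952 (minus strand) for Ctsd, chr7:88277908-88277967 (plus strand) for Ctsc, chr3:95526773-95526802 (plus strand) for Ctss, chr4:136893076-136893135 (minus strand) for C1qc, chr1:87620266-87620311 (plus strand) for Inpp5d and chr11:46454897-46454930 (plus strand) for Havcr2. Binding was not measured, and Spi1, the gene of PU.1, was itself at 1.31 ± 0.312 TPM in wild type and 1.63 ± 0.356 TPM in AppNLGF vehicle (SD, n = 4 and 11) and was not called (0.20 ± 0.13 with scaling).

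Signalling genes and transcription factors of myeloid cells rose in 3 cases as deposited and in 12 with scaling, of 23 tested. Among all tested genes 0.221% were called higher as deposited and 0.554% with scaling. Ptprc, the phosphatase CD45 of blood-lineage cells (chromosome 1, 138062861 to 138175708), was at 0.449, 0.473, 0.823 and 0.873 TPM in wild type and from 1.18 through a median of 1.62 to 2.11 TPM in AppNLGF vehicle, without overlap. It rose by 0.68 ± 0.13 as deposited (adjusted p = 0.0102) and 0.69 ± 0.11 with scaling (adjusted p = 0.000276). Ptprc was below 1 TPM in every wild type library and passed the filter through its values in AppNLGF libraries. Itgb2, the β2 integrin chain, was at 1.50, 1.70, 1.74 and 1.80 TPM and from 2.01 through a median of 3.14 to 3.83 TPM, again without overlap, and rose by 0.60 ± 0.12 as deposited (adjusted p = 0.0152) and 0.62 ± 0.10 with scaling (adjusted p = 0.000451). Ptpn6, the phosphatase SHP-1 that ends receptor signals, was at 1.22, 1.31, 1.32 and 1.39 TPM and from 2.02 through a median of 2.48 to 3.42 TPM and rose by 0.62 ± 0.14 as deposited (adjusted p = 0.0476) and 0.63 ± 0.12 with scaling (adjusted p = 0.00285). Ptprc was no longer called as deposited without wild type library 1 or 3 (adjusted p 0.0949 to 0.107). Itgb2 was no longer called as deposited without wild type library 1, 2, 3 or 4 (adjusted p 0.0509 to 0.127). Ptpn6 was no longer called as deposited without wild type library 1, 2, 3 or 4 or vehicle library 3, 4, 5, 6, 7, 8, 9, 10 or 11 (adjusted p 0.0546 to 0.192). In the list of myeloid signalling and transcription factors 23 of 26 members were tested, none was called lower, and 11 were not called with scaling. Of the 23, 22 were above 0 with scaling, against 49.5% of all tested genes, and the median was 0.38 as deposited and 0.40 with scaling.

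Inpp5d, Plcg2 and Pik3cg were called with scaling only. Inpp5d, the phosphatase SHIP1, was at 3.01, 3.89, 3.92 and 4.48 TPM in wild type and from 4.58 through a median of 4.96 to 6.69 TPM in AppNLGF vehicle (0.40 ± 0.09, adjusted p = 0.0214). Plcg2, phospholipase Cγ2, was at 0.907, 0.963, 1.09 and 1.22 TPM and from 1.27 through a median of 1.53 to 1.96 TPM (0.33 ± 0.07, adjusted p = 0.00989). Every vehicle library was above every wild type library for both genes. Pik3cg, a catalytic subunit of phosphoinositide 3-kinase in leukocytes, rose by 0.48 ± 0.09 (adjusted p = 0.00260). Among transcription factor genes of macrophages, Irf8 rose by 0.64 ± 0.12 (adjusted p = 0.00418) and Irf5 by 0.41 ± 0.09 (adjusted p = 0.0111). Cebpa rose by 0.47 ± 0.10 (adjusted p = 0.0181). Their wild type means were 1.64 TPM for Irf8, 1.47 TPM for Irf5 and 3.75 TPM for Cebpa. Inpp5d was no longer called with scaling without wild type library 1, 2 or 3 (adjusted p 0.0766 to 0.230). Plcg2 was no longer called with scaling without wild type library 1 or 4 (adjusted p 0.0671 to 0.0709). Pik3cg was no longer called with scaling without wild type library 1 (adjusted p 0.0514). Irf8 was no longer called with scaling without wild type library 2 (adjusted p 0.0518). Irf5 was no longer called with scaling without wild type library 1 or 3 (adjusted p 0.0572 to 0.119). Cebpa was no longer called with scaling without wild type library 1, 2 or 4 (adjusted p 0.0686 to 0.146).

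Markers of microglia at rest were mostly not called. Cx3cr1, the fractalkine receptor, was at 15.1 ± 1.03 TPM in wild type and 18.6 ± 3.30 TPM in AppNLGF vehicle and differed by 0.30 ± 0.15 with scaling (adjusted p = 0.714). P2ry12, a receptor for ADP, was at 12.5 ± 1.05 TPM in wild type and 15.0 ± 2.81 TPM in AppNLGF vehicle and differed by 0.24 ± 0.14 (adjusted p = 0.803). Neither was called. The summed TPM of the 16 homeostatic microglia genes was 240.0 to 293 in wild type and 282 to 383 in AppNLGF vehicle, and all 16 were above 0 with scaling, 4 of them called. Among all tested genes 49.5% were above 0 and 0.554% called higher with scaling. The part of these 16 genes in the other myeloid differences was not tested.

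Of 14 tested Fc and phagocytic receptor genes, 4 rose as deposited and 6 with scaling, and 8 were not called in either. The shares called higher among all tested genes were 0.221% as deposited and 0.554% with scaling. Fcgr3, an activating Fcγ receptor (chromosome 1, 171051174 to 171064935), was at 6.58, 6.92, 7.36 and 8.00 TPM in wild type and from 11.0 through a median of 13.0 to 16.5 TPM in AppNLGF vehicle, without overlap, a rise of 0.79 ± 0.14 as deposited (adjusted p = 0.00208) and 0.81 ± 0.09 with scaling (adjusted p = 4.87e-06). Fcgr2b, the inhibitory Fcγ receptor, was at 1.22, 1.55, 1.82 and 2.33 TPM and from 2.39 through a median of 3.93 to 5.01 TPM, without overlap, and rose by 0.78 ± 0.15 as deposited (adjusted p = 0.0102) and 0.79 ± 0.13 with scaling (adjusted p = 0.000653). Cd14, the co-receptor for lipopolysaccharide, was at 0.734, 1.12, 1.31 and 1.41 TPM and from 2.06 through a median of 2.97 to 3.73 TPM, without overlap, and rose by 0.86 ± 0.13 as deposited (adjusted p = 0.000760) and 0.87 ± 0.14 with scaling (adjusted p = 0.000391). Fcer1g, the adaptor chain of Fc receptors, rose by 0.73 ± 0.16 as deposited (adjusted p = 0.0247) and 0.76 ± 0.13 with scaling (adjusted p = 0.000656). With scaling only, Tlr13, a receptor for bacterial ribosomal RNA, and Cd180, a receptor related to the Toll-like receptors, rose by 0.51 ± 0.10 and 0.69 ± 0.16 (adjusted p = 0.00626 and 0.0399). Of the list of Fc and phagocytic receptors 14 of 24 members were tested, and all 14 were above 0, at a median of 0.50 as deposited and 0.52 with scaling. With scaling 49.5% of all tested genes were above 0. The other 10 members did not enter the test. Members low in wild type, such as Tlr13, could enter it through their AppNLGF values. That favours values above 0, so the count describes these members and supports nothing further. Cd180 was no longer called with scaling without wild type library 1, 3 or 4 or vehicle library 2, 3, 4, 5, 7, 9, 10 or 11 (adjusted p 0.050015 to 0.244). Fcgr2b was no longer called as deposited without wild type library 1 or 4 (adjusted p 0.0805 to 0.115). Fcer1g was no longer called as deposited without wild type library 1, 2, 3 or 4 (adjusted p 0.0600 to 0.222).

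Tyrobp, the adaptor DAP12 that carries the signal of TREM2, was split in the deposited table. Its gene row was at 0 in 13 of the 15 libraries and at 14.6 and 14.8 TPM in 2 vehicle libraries, and it was not called. A separate row of the table for the single protein-coding transcript Tyrobp-202 was at 16.2 to 21.1 TPM in wild type and at 33.1 to 60.9 TPM in AppNLGF vehicle. The groups did not overlap on that row, and it was higher by 1.44 ± 0.23 as deposited (limma, adjusted p = 0.00281) and 1.47 ± 0.20 with scaling (adjusted p = 8.43e-05). Of 21076 transcript rows tested, 2 were called as deposited and 3 with scaling (0.00949% and 0.0142%). Adding transcript rows to their gene rows gave Tyrobp a difference of 1.51 ± 0.19 as deposited (adjusted p = 2.02e-05). Transcript rows held 8.55 to 11.0% of the TPM of these libraries. For the 10878 tested genes that have them, a median of 24.9% of the gene's TPM sat in transcript rows, and for 2014 genes more than 50%. Among the genes above, that share was 43.9% for Ctsa, 49.9% for Laptm5, 47.2% for Inpp5d and 52.8% for Ptprc, so their gene rows hold only a part of the gene. With gene and transcript rows summed, 50 of 17579 genes were called (0.284%), and 42 of the 47 genes called as deposited were still called. Ptpn6, Plau, Lgals3bp, Egr2 and Tent5c were lost (adjusted p 0.0505 to 0.387), and with Tyrobp, Slc11a1, a metal transporter of phagosomes, was among the 8 gained (1.30 ± 0.24, adjusted p = 0.00578, against 0.210 for the gene row). Slc11a1 was chosen after its values were seen. Of the 116 genes called with scaling, 82 were called with scaling on summed rows.

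Tgfbr2, Csf1r, Csf3r and Osmr, set together here because they were called, encode receptors for growth factors and cytokines. Tgfbr2, the type 2 receptor for TGF-β (chromosome 9, 116084293 to 116175360), was at 3.66, 3.94, 3.95 and 4.53 TPM in wild type and from 4.71 through a median of 6.26 to 7.08 TPM in AppNLGF vehicle, without overlap. It rose by 0.50 ± 0.11 as deposited (adjusted p = 0.0401) and 0.52 ± 0.07 with scaling (adjusted p = 2.02e-05). Csf1r, the receptor on which microglia depend for survival, rose by 0.45 ± 0.08 (adjusted p = 0.000979), Csf3r, the receptor for granulocyte colony-stimulating factor, by 0.64 ± 0.13 (adjusted p = 0.0110), and Osmr, the oncostatin M receptor, by 0.42 ± 0.10 (adjusted p = 0.0447), all with scaling only. In the list of cytokines, inflammasome and nuclear factor kappa B 19 of 29 members were tested, Tgfbr2 was the call made as deposited, Csf3r was added with scaling, and 17 were not called in either. The median was 0.12 as deposited and 0.13 with scaling. The shares called higher over all tested genes were 0.221% as deposited and 0.554% with scaling. Csf3r was no longer called with scaling without wild type library 1 or 3 (adjusted p 0.0942 to 0.120). Osmr was no longer called with scaling without wild type library 1, 2, 3 or 4 or vehicle library 1, 2, 4, 5, 6, 7, 8, 10 or 11 (adjusted p 0.0510 to 0.333). Tgfbr2 was no longer called as deposited without wild type library 1, 2, 3 or 4 or vehicle library 3, 4, 6, 7, 8, 9, 10 or 11 (adjusted p 0.0609 to 0.214).

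Lag3, Havcr2 and Vsir, named here from the called genes, encode receptors also known from T cells. Lag3, which binds MHC class II (chromosome 6, 124904361 to 124911705), was at 2.14, 2.20, 2.88 and 2.89 TPM in wild type and from 3.41 through a median of 5.16 to 6.62 TPM in AppNLGF vehicle, without overlap, and rose by 0.82 ± 0.14 as deposited (adjusted p = 0.00189) and 0.84 ± 0.12 with scaling (adjusted p = 9.43e-05). Havcr2 (TIM-3) and Vsir (VISTA), other receptors of this class that microglia also express, were higher by 0.51 ± 0.12 (adjusted p = 0.0303) and 0.63 ± 0.12 (adjusted p = 0.00337) with scaling. Only 3 of 11 vehicle libraries exceeded every wild type library for Havcr2, whose wild type libraries were at 0.861, 0.935, 1.06 and 2.07 TPM. The T cell gene Cd3e was at 0 to 0.164 TPM in the same libraries. Havcr2 was no longer called with scaling without wild type library 1, 2 or 3 or vehicle library 7 (adjusted p 0.0507 to 0.236).

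The next genes were taken from those called and share no list fixed for them. Mpeg1 had the largest rise among called genes outside the lists of glial states, complement and immediate early genes. Mpeg1, a pore-forming protein of phagosomes (chromosome 19, 12460779 to 12465283), was at 6.03, 6.45, 7.10 and 7.20 TPM in wild type and from 11.2 through a median of 15.5 to 19.0 TPM in AppNLGF vehicle, without overlap, and rose by 1.10 ± 0.19 as deposited (adjusted p = 0.00189) and 1.12 ± 0.14 with scaling (adjusted p = 6.92e-06). Lgals3bp, a secreted partner of galectin-3, was at 4.56, 4.65, 4.79 and 5.33 TPM and from 7.90 through a median of 8.61 to 11.7 TPM and rose by 0.82 ± 0.14 as deposited (adjusted p = 0.00185) and 0.85 ± 0.12 with scaling (adjusted p = 0.000119). Plau, urokinase, the activator of plasminogen, was at 0.633, 0.665, 0.682 and 1.05 TPM and from 1.39 through a median of 2.10 to 2.76 TPM and rose by 0.83 ± 0.17 as deposited (adjusted p = 0.0156) and 0.84 ± 0.14 with scaling (adjusted p = 0.000821). Neither gene overlapped between groups. Scrg1, named for its rise in scrapie, was at 15.3, 15.4, 17.3 and 18.9 TPM and from 20.2 through a median of 24.0 to 34.0 TPM, without overlap, and rose by 0.52 ± 0.11 as deposited (adjusted p = 0.0282) and 0.55 ± 0.08 with scaling (adjusted p = 0.000147). With scaling only, Capg, an actin-capping protein, rose by 0.86 ± 0.17 (adjusted p = 0.00647) and Pglyrp1, a peptidoglycan-binding protein, by 0.84 ± 0.20 (adjusted p = 0.0420). Cd53, a tetraspanin, rose by 0.67 ± 0.12 (adjusted p = 0.00127), Slc15a3, a peptide transporter of lysosomes, by 0.65 ± 0.15 (adjusted p = 0.0365), and Myo1f, a myosin of leukocytes, by 0.87 ± 0.21 (adjusted p = 0.0488). Capg was no longer called with scaling without wild type library 4 (adjusted p 0.0569). Pglyrp1 was no longer called with scaling without wild type library 1, 2 or 4 or vehicle library 1, 2, 3, 4, 6, 8 or 11 (adjusted p 0.0519 to 0.333). Slc15a3 was no longer called with scaling without wild type library 1, 3 or 4 or vehicle library 2, 4, 5, 7 or 11 (adjusted p 0.0557 to 0.333). Myo1f was no longer called with scaling without wild type library 2, 3 or 4 or vehicle library 2, 3, 4, 5, 6, 7, 8, 10 or 11 (adjusted p 0.0682 to 0.249). Plau was no longer called as deposited without wild type library 1, 2 or 4 (adjusted p 0.0879 to 0.117). Scrg1 was no longer called as deposited without wild type library 1, 3 or 4 or vehicle library 9 (adjusted p 0.0519 to 0.207).

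Cd52, a short surface glycoprotein, was at 2.78, 3.06, 3.60 and 4.39 TPM in wild type and from 5.33 through a median of 10.6 to 13.1 TPM in AppNLGF vehicle, and Ly86, the secreted partner of CD180, was at 4.63, 4.74, 5.40 and 6.15 TPM and from 8.35 through a median of 14.0 to 15.2 TPM. All vehicle libraries exceeded all wild type libraries for both, and the rises were 1.26 ± 0.22 as deposited (adjusted p = 0.00205) and 1.28 ± 0.19 with scaling (adjusted p = 0.000200) for Cd52 and 1.16 ± 0.19 as deposited (adjusted p = 0.00173) and 1.18 ± 0.16 with scaling (adjusted p = 2.86e-05) for Ly86. Cyba, a subunit of the NADPH oxidase of phagocytes, rose by 0.56 ± 0.13 with scaling only (adjusted p = 0.0251). It was at 4.66, 4.89, 5.29 and 5.98 TPM in wild type and from 6.08 through a median of 7.40 to 11.1 TPM, without overlap. Arpc1b, a subunit of the complex that branches actin filaments, rose by 0.50 ± 0.10, Hcls1, its regulator in blood-lineage cells, by 0.58 ± 0.12, and Dock8, an activator of the GTPase CDC42, by 0.35 ± 0.07, also with scaling only (adjusted p = 0.00467, 0.00665 and 0.00974). Itgam, the integrin chain CD11b, rose by 0.37 ± 0.08 and Itgb5, the integrin chain β5, by 0.49 ± 0.09 (adjusted p = 0.0221 and 0.00429). Tcn2, which carries vitamin B12, and Srgn, the proteoglycan of secretory granules, were at 8.74 ± 1.31 TPM in wild type and 11.9 ± 0.807 TPM in AppNLGF vehicle and at 3.30 ± 0.465 TPM in wild type and 4.61 ± 0.600 TPM in AppNLGF vehicle (SD, n = 4 and 11), and rose by 0.44 ± 0.11 and 0.40 ± 0.09 (adjusted p = 0.0488 and 0.0310). Of the glial lists, 13 of 28 tested plaque-associated genes were called higher as deposited and 17 with scaling, and the counts were 4 and 6 of 9 for complement and 3 and 4 of 12 for reactive astrocytes. Over all tested genes these shares were 0.221% and 0.554%. Cd52, Ly86 and Cd68 are among the called plaque-associated genes. Cyba was no longer called with scaling without wild type library 1, 3 or 4 (adjusted p 0.0942 to 0.124). Hcls1 was no longer called with scaling without wild type library 1 (adjusted p 0.116). Dock8 was no longer called with scaling without wild type library 1 or 2 (adjusted p 0.0581 to 0.0680). Itgam was no longer called with scaling without wild type library 1, 3 or 4 (adjusted p 0.0738 to 0.118). Tcn2 was no longer called with scaling without wild type library 1, 2, 3 or 4 or vehicle library 1, 2, 3, 4, 5, 6, 7, 10 or 11 (adjusted p 0.0515 to 0.383). Srgn was no longer called with scaling without wild type library 1, 2 or 3 or vehicle library 6 or 7 (adjusted p 0.0525 to 0.263).

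Of 10 tested antigen presentation genes 1 was called higher, and of 15 tested interferon-response genes 1. The shares called higher over all tested genes were 0.221% as deposited and 0.554% with scaling, and 49.5% were above 0 with scaling. Members low in wild type could enter the test through their AppNLGF values. B2m, the light chain of MHC class I (chromosome 2, 122147686 to 122153083), was at 59.7, 59.7, 61.7 and 65.7 TPM in wild type and from 74.6 through a median of 91.9 to 112 TPM in AppNLGF vehicle, without overlap. It rose with scaling only, by 0.61 ± 0.11 (adjusted p = 0.00152), against 0.58 ± 0.15 as deposited (adjusted p = 0.126). All 10 tested members of the antigen presentation list were above 0 with scaling, at a median of 0.48 as deposited and 0.50 with scaling, and B2m was the only one of the 10 called. B2m is also a member of the list of plaque-associated microglia and is counted there. Of 15 tested interferon-response genes, 12 were above 0 and Lgals3bp was the only one called, at a median of 0.17 as deposited and 0.20 with scaling. Among 20 tested genes of lipid transport and storage, Lpl, lipoprotein lipase, was called with scaling (0.54 ± 0.09, adjusted p = 0.000496) and the median was 0.01 as deposited and 0.03 with scaling. Lpl, too, is in the list of plaque-associated microglia. None of 22 cholesterol synthesis genes was called in limma, with a median of -0.02 as deposited and 0.01 with scaling, and Cyp51 stood at -0.16 with scaling.

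Among vascular and astrocyte genes, few were called. Rgs5, a regulator of G protein signalling in pericytes, was at 15.2, 15.8, 16.0 and 16.7 TPM in wild type and from 16.2 through a median of 19.7 to 21.1 TPM in AppNLGF vehicle, with 10 of 11 libraries above every wild type library, and rose by 0.27 ± 0.06 with scaling (adjusted p = 0.0365). Slc14a1, a urea transporter found in astrocytes, rose by 0.48 ± 0.12 (adjusted p = 0.0473), and Chst2, a sulfotransferase for sugar chains, by 0.21 ± 0.05 (adjusted p = 0.0460), both also with scaling only. Of 17 tested genes of endothelium and the blood-brain barrier, 16 were above 0 with scaling and none was called in limma (median 0.11 as deposited and 0.13 with scaling). Over all tested genes 49.5% were above 0 with scaling. Of 16 astrocyte identity genes 13 were above 0 and none was called (median 0.06 as deposited and 0.09 with scaling), while Gfap, the filament protein that reactive astrocytes make, was at 37.5, 44.9, 46.7 and 52.2 TPM in wild type and from 96.6 through a median of 140.1 to 172 TPM. Rgs5 was no longer called with scaling without wild type library 1, 2, 3 or 4 or vehicle library 1, 2, 4, 6, 7, 8 or 10 (adjusted p 0.0511 to 0.168). Slc14a1 was no longer called with scaling without wild type library 1, 2, 3 or 4 or vehicle library 3, 4, 5, 6, 7, 8, 9, 10 or 11 (adjusted p 0.0531 to 0.279). Chst2 was no longer called with scaling without wild type library 1, 2, 3 or 4 or vehicle library 1, 3, 4, 5, 6, 7 or 10 (adjusted p 0.0527 to 0.239).

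**Figure D3:**
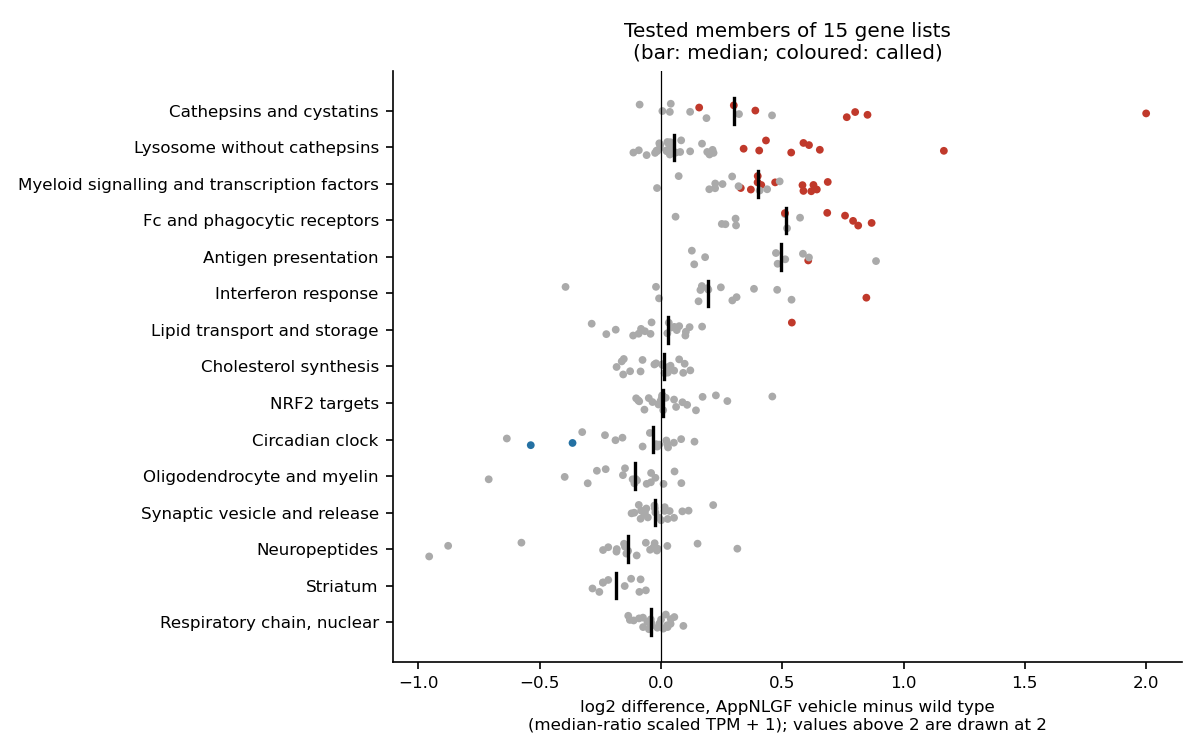
Log2 difference between AppNLGF vehicle and wild type with scaling (horizontal) for each tested member of 15 gene lists (rows), with the list's median as a black bar. Values above 2 are drawn at 2 (Cst7, 3.70), and red and blue points are members called higher and lower with scaling; the Fc and phagocytic receptor list has its median at 0.52 and the lists of synaptic vesicle and respiratory chain genes have theirs at -0.02 and -0.04.

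Genes that fell were fewer than those that rose, among genes that passed a filter open to those high in AppNLGF libraries alone. Of the circadian clock list, 18 of 18 members were tested, 1 was called lower as deposited and 2 with scaling. The shares called lower over all tested genes were 0.0596% and 0.137%. Nr1d1, the repressor REV-ERBα (chromosome 11, 98767932 to 98775333), was at 50.6, 52.0, 55.4 and 57.7 TPM in wild type and from 33.5 through a median of 39.2 to 50.1 TPM in AppNLGF vehicle. All 11 vehicle libraries were lower, and the difference was -0.39 ± 0.10 as deposited (adjusted p = 0.130) and -0.36 ± 0.07 with scaling (adjusted p = 0.00251), called with scaling only. Per1, a clock repressor that is also induced by stimulation and glucocorticoids (chromosome 11, 69095217 to 69109960), was at 34.0, 40.2, 42.5 and 51.1 TPM and from 23.9 through a median of 27.4 to 33.1 TPM, without overlap, and fell by 0.57 ± 0.12 as deposited (adjusted p = 0.0153) and 0.54 ± 0.09 with scaling (adjusted p = 0.00153). Ciart, a repressor of the same clock, was at 14.5, 16.8, 17.0 and 22.1 TPM and from 7.84 through a median of 10.8 to 14.7 TPM and was not called (-0.67 ± 0.15 as deposited, adjusted p = 0.0517; -0.64 ± 0.16 with scaling, adjusted p = 0.0652). The clock list as a whole had 6 of 18 members above 0 with scaling, against 49.5% of all tested genes. Its median was -0.06 as deposited and -0.03 with scaling. The time of day of tissue collection is not in the labels, so it and genotype cannot be told apart. Per1 was no longer called as deposited without wild type library 2, 3 or 4 (adjusted p 0.0600 to 0.194).

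Chrm4, the M4 muscarinic acetylcholine receptor of striatum and cortex (chromosome 2, 91927249 to 91928688), was at 25.6, 27.4, 27.7 and 31.0 TPM in wild type and from 16.1 through a median of 21.5 to 23.8 TPM in AppNLGF vehicle, without overlap. The difference was -0.44 ± 0.11 as deposited (adjusted p = 0.0950) and -0.41 ± 0.08 with scaling (adjusted p = 0.00448), called with scaling only. Stmn4, a neuronal stathmin that binds tubulin, was at 68.5, 72.5, 74.9 and 76.0 TPM and from 45.1 through a median of 60.1 to 69.4 TPM (-0.32 ± 0.07 with scaling, adjusted p = 0.0223). Ttll1, a polyglutamylase of tubulin, was at 17.6, 18.6, 18.6 and 18.7 TPM and from 13.3 through a median of 15.4 to 17.2 TPM (-0.21 ± 0.04, adjusted p = 0.00565). The vehicle libraries were below every wild type library in 10 of 11 cases for Stmn4 and in all 11 for Ttll1. Gpr137c, a membrane protein, fell by 0.20 ± 0.04 with scaling (adjusted p = 0.00648), and Spata33, first known from testis, by 0.48 ± 0.12 (adjusted p = 0.0476). Pkmyt1, a kinase that inhibits CDK1, and Pola2, a subunit of DNA polymerase α, both near 2 TPM in wild type, differed by -0.45 ± 0.10 and -0.39 ± 0.09 (adjusted p = 0.0237 and 0.0291). Stmn4 was no longer called with scaling without wild type library 1, 3 or 4 (adjusted p 0.10034 to 0.129). Ttll1 was no longer called with scaling without wild type library 1 (adjusted p 0.0738). Gpr137c was no longer called with scaling without wild type library 1 or 2 (adjusted p 0.0651 to 0.0834). Spata33 was no longer called with scaling without wild type library 1, 2, 3 or 4 or vehicle library 1, 2, 4, 6, 7, 8, 9 or 10 (adjusted p 0.0594 to 0.354). Pkmyt1 was no longer called with scaling without wild type library 1, 2, 3 or 4 (adjusted p 0.0582 to 0.120). Pola2 was no longer called with scaling without wild type library 1, 2, 3 or 4 or vehicle library 4 or 7 (adjusted p 0.0504 to 0.159).

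**Figure D4:**
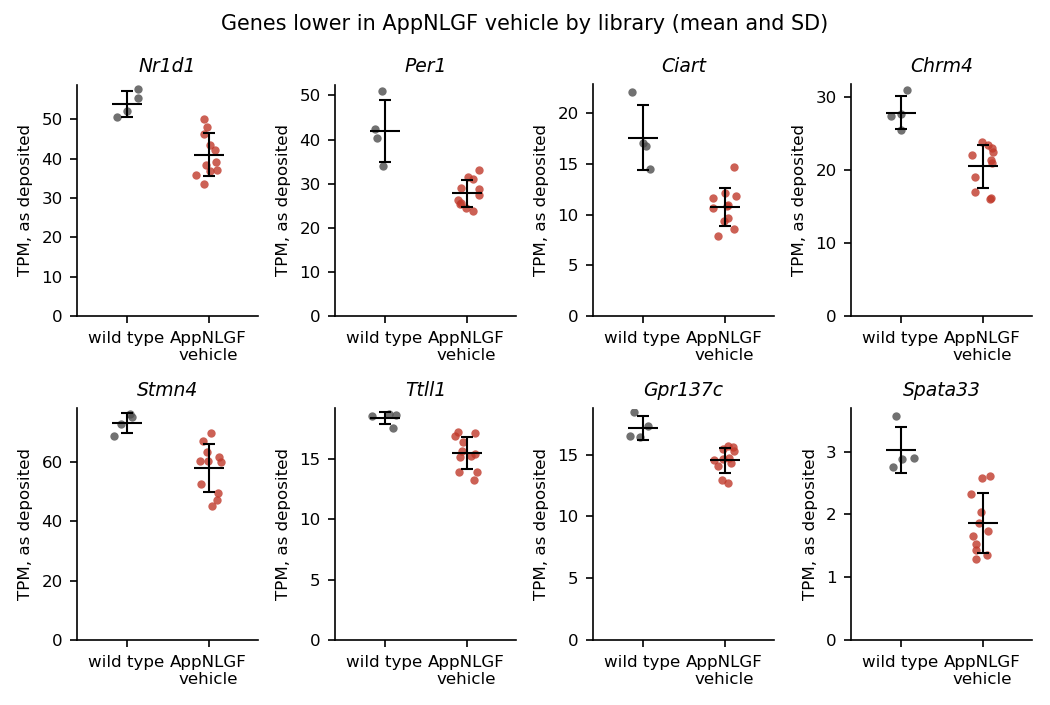
TPM as deposited (vertical) of 8 genes with lower means in AppNLGF vehicle, a point per library (grey, 4 wild type; red, 11 AppNLGF vehicle), with mean and SD in black. Ciart was not called; the other 7 genes were called lower, and Chrm4 ranges up to 23.8 TPM in AppNLGF vehicle against at least 25.6 TPM in wild type.

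Immediate early genes, which are transcribed within minutes of a stimulus, gave 8 of the 10 genes lower as deposited and 11 of the 23 with scaling. Of the 26 members of that list 24 were tested, and 23 of these were below 0 with scaling. The shares called lower over all tested genes were 0.0596% as deposited and 0.137% with scaling. Fos itself was at 13.6, 21.0, 22.3 and 31.2 TPM in wild type and from 2.96 through a median of 6.27 to 8.25 TPM in AppNLGF vehicle, without overlap. Dusp1, a phosphatase of MAP kinases, was at 12.1, 18.8, 19.5 and 27.7 TPM in wild type and from 5.32 through a median of 6.96 to 12.2 TPM in AppNLGF vehicle and fell by 1.27 ± 0.24 as deposited (adjusted p = 0.00624) and 1.24 ± 0.22 with scaling (adjusted p = 0.00206). Its retained-intron transcript Dusp1-203, which has a row of its own, also fell, by 0.98 ± 0.19 as deposited (limma, adjusted p = 0.0256), from 1.43 to 3.15 TPM in wild type to 0.262 to 1.42 TPM. Btg2, an antiproliferative gene, was at 4.80, 5.99, 13.1 and 19.2 TPM and from 2.83 through a median of 3.56 to 4.70 TPM (-1.12 ± 0.26 with scaling, adjusted p = 0.0310). Ccn1, a secreted matrix protein that the same stimuli induce, was at 2.72, 3.93, 6.72 and 9.66 TPM and from 1.24 through a median of 2.00 to 2.82 TPM (-1.04 ± 0.25, adjusted p = 0.0447). For Ccn1 and Dusp1, 10 of 11 vehicle libraries were below every wild type library, and for Btg2 all 11 were. Arl4d, a small GTPase, fell as deposited only, by 0.78 ± 0.17 (adjusted p = 0.0355), against -0.75 ± 0.20 with scaling (adjusted p = 0.108). Csrnp1, a nuclear protein, was called only with scaling (-0.43 ± 0.10, adjusted p = 0.0367), as was Sik1, a salt-inducible kinase (-0.61 ± 0.14, adjusted p = 0.0397). The wild type libraries were spread widely for several of these genes, with Btg2 covering a range of 4.80 to 19.2 TPM among 4 libraries. Btg2 was no longer called with scaling without wild type library 1 or 2 or vehicle library 2, 7 or 11 (adjusted p 0.050048 to 0.346). Ccn1 was no longer called with scaling without wild type library 1, 2 or 3 or vehicle library 1, 2, 3, 4, 5, 6, 7, 8, 9 or 11 (adjusted p 0.0512 to 0.382). Csrnp1 was no longer called with scaling without wild type library 1, 2, 3 or 4 or vehicle library 2, 7, 8, 9, 10 or 11 (adjusted p 0.0508 to 0.172). Sik1 was no longer called with scaling without wild type library 2, 3 or 4 or vehicle library 2, 3, 4, 5, 6, 8, 9, 10 or 11 (adjusted p 0.050028 to 0.300). Dusp1 was no longer called as deposited without wild type library 2 (adjusted p 0.0879). Arl4d was no longer called as deposited without wild type library 1, 2, 3 or 4 or vehicle library 2, 3, 5, 8 or 10 (adjusted p 0.0515 to 0.256).

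The cyclic AMP response element TGACGTCA, the site of CREB, was present in 3 of the 17 promoters available for the 24 genes called lower (17.6%), against 3.29% of the promoters of tested genes and 1.37% of those of the genes called higher (1 of 73). This element, too, was chosen when the called genes were known. The ETS core was present in 1 of the 17 (5.88%). The 3 matches of TGACGTCA are shown with the element in capitals, 5′ to 3′ on the strand of the gene.
Dusp1: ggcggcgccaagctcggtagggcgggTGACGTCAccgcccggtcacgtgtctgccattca
Btg2: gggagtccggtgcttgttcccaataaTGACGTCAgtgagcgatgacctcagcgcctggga
Arl4d: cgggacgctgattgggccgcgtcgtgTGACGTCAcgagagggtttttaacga
They lie at chr17:26508582-26508641 (minus strand) for Dusp1, chr1:134079288-134079347 (minus strand) for Btg2 and chr11:101665489-101665540 (plus strand) for Arl4d, and binding was not measured.

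Most neuronal and metabolic lists had no called gene, where 0.28% of all tested genes were called as deposited and 0.691% with scaling. At these shares lists of this size would hold few calls or none, so the absence says little about these genes. None was called in limma, in either way, among 22 genes of synaptic vesicles, 20 of the postsynaptic density, 22 glutamate receptors, 19 genes of GABA receptors and synthesis, 21 neuropeptides, 24 ion channel genes, 16 genes of tau and its kinases, 28 ribosomal proteins, 24 nuclear and 13 mitochondrial genes of the respiratory chain and 19 of the proteasome. Their medians with scaling lay between -0.14 for neuropeptides and 0.05 for mitochondrial respiratory chain genes. Over all tested genes 698 had an unadjusted p below 0.05 as deposited and 1183 with scaling. The neuropeptide genes Npy, Sst and Cck stood at -0.15 ± 0.09, -0.02 ± 0.06 and -0.03 ± 0.08 with scaling, and the growth factor gene Bdnf was at 7.40 ± 1.25 TPM in wild type and 7.34 ± 1.61 TPM in AppNLGF vehicle. The lowest values of the neuropeptide list were those of Pmch and Hcrt of the hypothalamus, at -0.96 ± 1.15 and -0.88 ± 1.00 with scaling (limma, adjusted p = 0.932 and 0.927), where the error exceeds the difference; they were picked after their values were seen. Gad1, which makes GABA, was at 115 ± 14.6 TPM in wild type and 95.2 ± 10.7 TPM in AppNLGF vehicle (-0.23 ± 0.09, adjusted p = 0.458).

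The mutated gene itself was not called. App (chromosome 16, 84949685 to 85173766) was at 452, 456, 477 and 489.9 TPM in wild type and from 394 through a median of 447 to 461 TPM in AppNLGF vehicle, with 7 of 11 vehicle libraries below every wild type library, and differed by -0.10 ± 0.07 as deposited and -0.07 ± 0.03 with scaling (adjusted p = 0.735). TPM of the gene do not show which allele was read, so this checks no label. Bace1, the β-secretase, was at 19.8 ± 1.40 TPM in wild type and 20.9 ± 1.84 TPM in AppNLGF vehicle (0.10 ± 0.04, adjusted p = 0.611), Apoe at 614 ± 14.9 TPM in wild type and 627 ± 49.6 TPM in AppNLGF vehicle (0.05 ± 0.07, adjusted p = 0.933) and Mapt, the gene of tau, at 111 ± 4.63 TPM in wild type and 110.5 ± 6.98 TPM in AppNLGF vehicle (0.01 ± 0.04, adjusted p = 0.978). Among 23 tested genes of amyloid precursor processing, Cst3 was the only one called, with scaling, where 0.691% of all tested genes were called. NRF2 targets were also without a call among 24 tested, at a median of -0.02 as deposited and 0.01 with scaling. Nfe2l2, the gene of NRF2, was at 5.88 ± 0.683 TPM in wild type and 6.74 ± 0.614 TPM in AppNLGF vehicle (0.20 ± 0.07, adjusted p = 0.415), and Hmox1, heme oxygenase 1, at 1.74, 1.96, 2.11 and 2.30 TPM in wild type and from 2.27 through a median of 3.03 to 3.83 TPM in AppNLGF vehicle, where 10 of 11 libraries exceeded every wild type library (0.46 ± 0.12, adjusted p = 0.0855).

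Some markers of neighbouring tissue were lower on average in AppNLGF vehicle, and none of those below was called in either way. The smallest adjusted p with scaling (limma) was 0.789 for choroid plexus and 0.763 for striatal genes. Summed TPM overlapped between groups for blood cell, choroid plexus and striatal genes, and the members of a list are not replicates. All 5 tested blood cell genes were lower in AppNLGF vehicle, at a median of -1.38 as deposited and -1.35 with scaling, and none was called; their summed TPM was 88.8 to 251 in wild type and 20.8 to 132 in AppNLGF vehicle. Hba-a1, an α-globin gene, was at 17.1, 27.5, 35.6 and 63.4 TPM in wild type and from 3.55 through a median of 8.02 to 26.4 TPM. All 12 choroid plexus genes were below 0 at a median of -0.34 as deposited and -0.31 with scaling, and their summed TPM was 648 to 947 in wild type and 101 to 889 in AppNLGF vehicle. Ttr, transthyretin of that tissue, was at 467, 477, 553 and 704 TPM and from 3.66 through a median of 437 to 663 TPM. All 10 striatal genes were below 0 as well (median -0.21 as deposited and -0.18 with scaling), with summed TPM of 630.0 to 774 and 481 to 854, among them Drd1 at -0.28 ± 0.15 and Penk at -0.22 ± 0.16 with scaling. Of 18 myelin genes 3 were above 0, and Opalin, an oligodendrocyte membrane protein, was at 7.15, 7.56, 7.84 and 9.18 TPM and from 2.90 through a median of 3.90 to 6.78 TPM, lower in all 11 libraries but not called (-0.71 ± 0.19, adjusted p = 0.0888). The part of these markers in the falls of Chrm4, the clock genes and the immediate early genes was not tested.

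The rises were compared between subsets of vehicle libraries, each against the same 4 wild type libraries, as alternatives partly added after the data were seen. Without the 5 vehicle libraries that have Xist, 53 genes were higher and 15 lower with scaling (0.316% and 0.0894%, together 0.405%), and of the 116 genes called on all libraries all 116 kept their direction and 66 their call. The difference of Ctsd was 0.78 without them, that of Grn 0.48, that of Nr1d1 -0.36 and that of Chrm4 -0.31. Of the genes called in either way, 2 are on the X chromosome (Tlr13 and Msn) and none on Y. Vehicle libraries 1 to 5 gave Ctsd 0.87, Ctss 0.82, Grn 0.60 and Chrm4 -0.40, and libraries 6 to 11 gave 0.84, 0.72, 0.49 and -0.41. Of the 116 genes, 71 were called from libraries 1 to 5, 77 from libraries 6 to 11 and 55 from each. Leaving out 1 library at a time, 62 of the 116 stayed called in all 15 fits, and 25 of the 47 as deposited. The 116 and 47 genes were chosen on these same libraries, and the subsets share wild type libraries. A kept direction or call was therefore favoured in advance, and these counts describe the genes and support nothing further.

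The genotype difference was then set against that of vehicle-treated APP/TAU mice and their wild type at 11 months, 5 libraries each. Both differences were taken within their own table, in 1 limma fit over the 16418 genes tested in both. APP/TAU mice alone had 4 genes called as deposited and 5 with scaling, of 17592 tested. As deposited the APP/TAU differences had a median of 0.18 over all genes, and with scaling -0.0024, so that differences between cohorts are described mainly from scaled values. The difference was larger in AppNLGF for 3 genes as deposited and 59 with scaling (0.0183% and 0.359%), and smaller for 26 and 28 (0.158% and 0.171%). In all, 0.177% of genes were called as deposited and 0.53% with scaling. Leaving out single libraries left 1 to 8 larger and 8 to 403 smaller differences as deposited, with 403 without wild type library 4 of 11 months and 267 and 279 without APP/TAU libraries 3 and 5. Of 79 genes higher with scaling in AppNLGF vehicle and tested in both, 38 were also called higher in this test, and of 23 lower genes 12 were called lower. These genes were chosen for their difference in AppNLGF, which is also a term of this test, so the shares describe them and support nothing further. The cohorts differ in age, genotype, weeks of dosing and table, the APP/TAU table has no transcript rows, and Ppp1r1b was at 160 to 202 TPM in wild type at 6 months against 29.7 to 46.5 TPM at 11 months, and Pcp2 at 0 to 0.782 against 126 to 178 TPM, so these causes cannot be told apart.

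None of the lysosomal genes named here was called in APP/TAU mice. Only 4 of the 17592 genes tested there were called as deposited and 5 with scaling. Most sets of genes would therefore have no call, and the absence says little about lysosomal genes. Ctsd stood at -0.11 ± 0.06 in APP/TAU and 0.85 ± 0.08 in AppNLGF with scaling, and the difference between them was 0.72 ± 0.19 as deposited (adjusted p = 0.0970) and 0.96 ± 0.12 with scaling (adjusted p = 1.74e-06). For Grn it was 0.25 ± 0.14 as deposited (adjusted p = 0.303) and 0.48 ± 0.09 with scaling (adjusted p = 0.00193). Mpeg1 gave 0.90 ± 0.25 as deposited (adjusted p = 0.101) and 1.11 ± 0.19 with scaling (adjusted p = 0.000769) and Tgfbr2 0.44 ± 0.17 as deposited (adjusted p = 0.177) and 0.64 ± 0.10 with scaling (adjusted p = 0.000411). These 4 were called with scaling and not as deposited. For Ptpn6, Itgb2, Cd68 and AU020206, a transcript without an assigned function, the difference between cohorts was not called in either way, with 0.43, 0.49, 0.85 and 0.59 with scaling. As deposited the 3 genes with a larger difference in AppNLGF were Gfap, Trem2 and Lyz2, at 1.30, 1.30 and 1.36. Among falls, Per1 differed by -0.97 ± 0.19 as deposited (adjusted p = 0.0103) and -0.74 ± 0.16 with scaling (adjusted p = 0.0190) and Ccn1 by -1.59 ± 0.35 as deposited (adjusted p = 0.0356) and -1.38 ± 0.32 with scaling (adjusted p = 0.0364), whereas Nr1d1 and Chrm4 gave -0.31 and -0.51 and were not called. App differed by -1.16 ± 0.12 as deposited (adjusted p = 3.39e-08) and -0.92 ± 0.08 with scaling (adjusted p = 6.32e-11) and Thy1 by -1.54 ± 0.14 as deposited (adjusted p = 1.55e-09) and -1.30 ± 0.09 with scaling (adjusted p = 6.47e-13), genes that were higher in APP/TAU mice than in their wild type (by 0.85 and 1.33 with scaling).

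**Figure D5:**
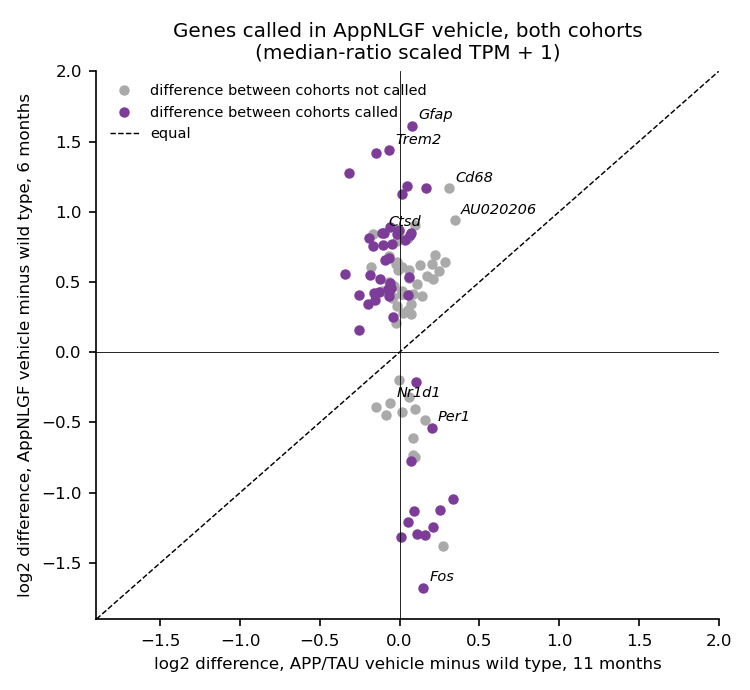
Log2 difference in AppNLGF vehicle at 6 months (vertical) against that in APP/TAU vehicle at 11 months (horizontal), each against its own wild type with scaling, for the 103 genes called in AppNLGF vehicle in either way and tested in both tables. Purple marks the 50 genes whose difference between cohorts was called with scaling, and the dashed line marks equal differences; Ctsd lies at 0.85 vertically and -0.11 horizontally.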

How the data were processed

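RNA-seq was made from brain RNA of 43 libraries. The authors deposited TPM per gene, for which the submitters' processing notes name Salmon and the builds GRCm38 and mm10 without a version of the tool. Depth and read counts cannot be had from TPM, and their precision is seen only in the spread between libraries. The AppNLGF table lists 55804 gene rows, 51327 of them with a symbol in the reference table, and 64708 transcript rows. Gene rows with a mean of at least 1 TPM over its 28 libraries were tested in limma 3.58.1 (R 4.3.3) on log2(TPM + 1), with 1 mean for each group, trended moderation and Benjamini-Hochberg adjustment over 16776 genes. The TPM were used as deposited and after median-ratio scaling. Groups were taken from sample labels. Genes were named from those with the smallest p in each list, the largest changes outside the glial and immediate early lists, the largest differences between cohorts and a fixed set; further called genes, the transcript rows, Cx3cr1, P2ry12 and Slc11a1 were added after the values were seen. The members and lists were chosen with earlier results of these data known. Alternatives covered scaling, pseudocount, filters, library weights, Xist, replicate numbers and left-out libraries. Same-numbered wild type and vehicle libraries did not deviate together (correlations -0.079 to 0.0072), so the numbers were not taken as pairs. The fits were tested on simulated data. Promoters are RefSeq sequences of GRCm38.p6, searched in Python 3.11.15. Gene coordinates are those of the GENCODE annotation of GRCm38.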

Additional observations from a re-analysis of the deposited data

Results flagged for a closer look

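Of 128 genes checked, 9 had a wild type library far from the other 3, measured as its gap to the nearest library relative to the whole range and compared with Dixon's limit. Chance alone flags about 1 in 20 groups. The outlying library was the highest for Ctsz (19.2 TPM), Laptm5 (12.2 TPM), Havcr2 (2.07 TPM), Plau (1.05 TPM), Spata33 (3.57 TPM), Ccl3 (0.366 TPM) and Clec7a (0.857 TPM). It was the lowest for Man2b1 (10.7 TPM) and Ttll1 (17.6 TPM).

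The genotype difference was tested between the cohorts in limma, and was called as deposited and with scaling for 14 named genes. With scaling it was larger in AppNLGF by 1.53 for Gfap, 1.50 for Trem2 and 1.57 for Lyz2. It was lower in AppNLGF for the immediate early and related genes Fos (-1.82), Nr4a1 (-1.46), Dusp1 (-1.45), Ccn1 (-1.38), Junb (-1.32), Arc (-1.26), Npas4 (-1.23), Ier2 (-0.85) and Per1 (-0.74), and for App (-0.92) and Thy1 (-1.30), which were higher in APP/TAU mice than in their own wild type.

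Rows for single transcripts lie outside the main measurement, and 3 of them were called with scaling. The Tyrobp row differed by 1.47, the Dusp1 row by -0.94 and the row of Sgsm1, a regulator of small GTPases, by -1.48.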

How the results depend on the processing

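As deposited, 37 genes were higher and 10 lower. Median-ratio scaling gave 93 and 23, quantile normalization 94 and 24, leaving out mitochondrial and the 20 most abundant rows 89 and 22, library weights 108 and 34, and a fit to wild type and vehicle libraries alone 63 and 16. A minimum of 5 TPM, which tests fewer genes, left 23 higher. Libraries without Xist, which are fewer, gave 13 and 5, and with scaling 53 and 15. A term for Xist left 6 lower. Vehicle libraries 1 to 5 gave 11 higher and, with scaling, 15 lower, libraries 6 and above gave 5 lower, and a term for these number ranges 166 lower. Apart from settings with fewer genes or libraries, the cause was not tested. Leaving out single libraries gave 22 to 45 higher and 4 to 13 lower genes, with scaling 60 to 100 higher and 13 to 24 lower. The comparison of cohorts gave 3 larger and 26 smaller differences as deposited. With scaling 59 were larger, at 5 TPM 11 were smaller, without Xist libraries 0 and 13, with scaling and without them 17 and 11, and without single libraries 1 to 8 and 8 to 403. The share of TPM in gene rows differed by 0.061 percentage points and by -0.057 to 0.22 without single wild type libraries.

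With the replicate number as a block, 16 genes were higher and 13 lower, with scaling 44 and 4. No wild type library correlated best with its own number (0 of 4), so the block does not stand for a pairing.

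Among 129 named genes, 3421 of 3950 alternative values kept direction and call, 303 gained a call, 192 lost it and 34, in 7 uncalled genes, changed sign. Mapt stood at -0.015 as deposited and at 0.015 with scaling, 0.020 with quantile normalization, 0.012 with abundant rows left out, 0.0026 with libraries without Xist, 0.0016 with a term for Xist, 0.055 with vehicle libraries 6 and above, 0.025 with summed rows and -0.032 to 0.0039 without single libraries. Apoe stood at 0.025 as deposited and at -0.069 with the block, -0.051 with a term for numbers 1 to 5 and -0.015 with vehicle libraries 1 to 5. Bace1 stood at 0.067 as deposited and at -0.053 with the block, -0.065 with a term for numbers 1 to 5 and -0.034 with vehicle libraries 1 to 5. Cck stood at -0.062 as deposited and at 0.013 with vehicle libraries 6 and above. Bdnf stood at -0.025 as deposited and at 0.16 with vehicle libraries 6 and above and -0.11 to 0.062 without single libraries. Thy1 stood at 0.0025 as deposited and at -0.11 with the block, -0.11 with a term for numbers 1 to 5, -0.045 with vehicle libraries 1 to 5, -0.024 with summed rows and -0.029 to 0.041 without single libraries. P2ry12 stood at 0.21 as deposited and at -0.021 with the block, -0.014 with a term for numbers 1 to 5 and -0.015 with summed rows.

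Depth is unknown, which limits what can be said of genes near 1 TPM.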
